A study of Bos taurus with 12 samples.

Results

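The genes described here build and police the kinetochore, and they were chosen by name: 45 gene symbols of the centromere, the kinetochore, the spindle checkpoint and the kinases and regulators that act there. The rule uses the symbols and no measured value, but the symbols were chosen with earlier results of these data known. The shares of these genes set beside all genes below are therefore descriptive. Of the 45, 44 were found among the 18436 genes of the expression table. The remaining symbol, MAD2L1, was not analysed here. All 44 passed the filter of a mean of at least 0.5 FPKM (fragments per kilobase of exon, scaled to the mapped reads of the library), as did 12302 genes in all.

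The data come from primary myoblasts isolated from the longissimus dorsi muscle of a newborn Qinchuan calf. GM denotes proliferating myoblasts harvested at 80% confluence in growth medium with fetal bovine serum. DM denotes cells at 100% confluence after 4 days in differentiation medium with horse serum, in which myoblasts fuse into myotubes. Medium, serum, density and time in culture therefore changed together between the groups. Each group has 3 input libraries (poly(A) RNA) and 3 libraries from immunoprecipitation (IP) with an antibody against N6-methyladenosine (m6A). With a single animal as the source of the cells, p-values measure the spread between cultures or preparations and not between animals.

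The kinetochore is the protein assembly that couples a chromosome to spindle microtubules during mitosis. A histone variant, CENPA, marks the centromere, an inner layer of CENP proteins sits on it, and the KNL1, Mis12 and Ndc80 complexes reach out from it to the microtubule. Kinases and BUB proteins at unattached kinetochores keep the anaphase-promoting complex (APC/C) inactive until attachment is complete, after which separase cuts the cohesin that holds sister chromatids. Myoblasts leave the cell cycle before they fuse, and the nuclei of myotubes do not normally divide.

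The labelled cell types were checked against defining markers first. All 3 myoblast markers (PAX7, MYOD1, MYF5) were lower in DM, with a summed level of 71.5 to 77.6 FPKM in GM libraries and 26.5 to 28.1 in DM. Of 6 myotube markers, 3 rose (MYH3, CKM, MYF6), ACTA1 fell, and MYOG and MYMK were not called, with sums of 604 to 666 FPKM in GM and 1044 to 1089 in DM. MYOG, a differentiation factor, stood at 197 FPKM ± 8.95 (SD, n = 3) already in GM and at 243 ± 14.9 in DM. It was higher in DM at under 1.5-fold (limma adjusted p = 0.0046), with all DM libraries above all GM libraries. MYMK went from 41.1 to 47.3 FPKM (limma adjusted p = 0.083), with overlap between the groups. All 6 fibroblast markers were abundant in both groups (sums of 15955 to 16099 FPKM in GM and 16786 to 17887 in DM) and none was called, but COL3A1, PDGFRA and DCN were higher in DM at under 1.5-fold (limma adjusted p = 0.0013, 0.0053 and 0.0032) and 4 of the 6 had all DM libraries above all GM libraries. Adipocyte, endothelial and leukocyte markers, each list summed by itself, reached at most 1.94 FPKM in any library. None was listed at 0 in all 6, while KDR, PTPRC and CD3E were not analysed here. Whether these levels reflect a mixture of cell types, and what part a mixture played in the results below, was not tested. In bulk RNA, fewer dividing cells and less of a transcript per cell cannot be told apart.

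Transcripts of 36 of the 44 kinetochore and checkpoint genes were lower in myotubes, none was higher (all 44 log2 fold changes were negative), and 8 did not pass both thresholds (p under 0.05 before adjustment, with a change of more than 1.5-fold, limma on log2(FPKM + 1)). The 36 make up 81.8% of the genes, where 6.97% of all tested genes were called lower and 4.90% higher. The median log2 fold change was −1.48, against −0.05 over all tested genes, and the median share of the GM level that remained was 23.5%, against 95.6%. With Benjamini-Hochberg adjustment of limma's p over all tested genes, 42 of the 44 (95.5%) passed 0.05, all but MIS12 and ZWINT, where 42.8% of all genes did so in either direction. In 43 of the 44, every DM library lay below every GM library, where 33.0% of all tested genes did. The mean level of the 44 genes ran from 2.47 to 36.0 FPKM in GM and from 0.205 to 21.5 in DM, and 17 of them averaged under 1 FPKM in DM.

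The loss was graded. In 11 genes less than 10% of the GM level remained, in 24 less than 25% and in 33 less than 50%, while 7 kept over 70%. Ranks were taken by the log2 fold change of FPKM + 1, which understates falls to low levels. Of the 50 largest falls among all tested genes on this scale, 11 were members, led by SPC24 at rank 1, BIRC5 at rank 7, CDC20 at rank 8 and CENPA at rank 12. Summed over the 44 genes, the GM libraries held 410, 396 and 372 FPKM and the DM libraries 131, 131 and 133. GM replicate 3 was the lowest of its group in 36 of the 44 genes, against 44.5% of all tested genes.

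**Figure D1:**
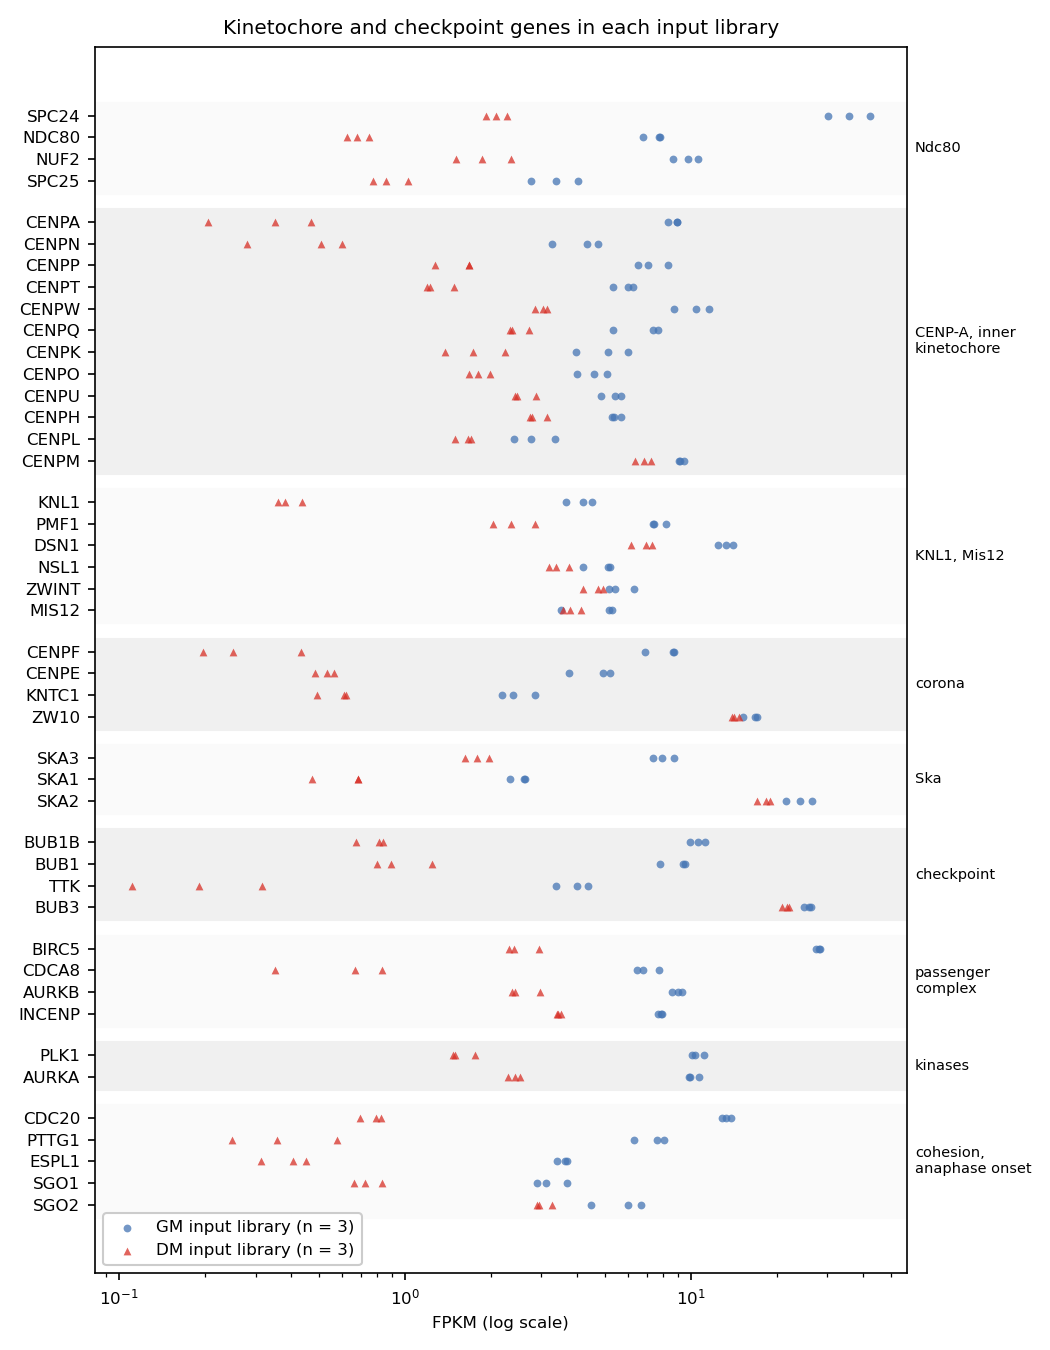
Input level of each of the 44 genes in every library, in FPKM on a log scale, with blue circles for the 3 GM libraries and red triangles for the 3 DM libraries. Genes are grouped by role and ordered by fold change within a role, and in all but MIS12 every DM library lies below every GM library.

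The Ndc80 complex, the rod that binds the microtubule, had lower transcript levels of all 4 subunits (median log2 fold change −2.10). SPC24 (ENSBTAG00000006185, chromosome 7, 15587514 to 15594237, minus strand, ARS-UCD1.2) measured 35.7, 30.2 and 42.3 FPKM in GM and 2.09, 2.28 and 1.91 in DM. The groups lay far apart. The log2 fold change of FPKM + 1, −3.57 ± 0.11 (SE, limma adjusted p = 3.3e-07), was the lowest of all 12302 genes. The rank holds on that scale, since CENPF (3.61%) and CENPA (3.91%), for example, kept a smaller share of their GM mean than SPC24 (5.80%). SPC25, which pairs with SPC24 at the inner end of the rod, measured 4.03, 3.38 and 2.77 FPKM in GM and 0.771, 0.861 and 1.02 in DM. That was the smallest fall of the complex, −1.21 ± 0.11 (SE, limma adjusted p = 7.9e-05). NDC80 and NUF2 form the microtubule-binding end. NDC80 measured 7.83, 7.71 and 6.78 FPKM in GM and 0.679, 0.746 and 0.626 in DM. NUF2 measured 10.6, 9.80 and 8.65 FPKM in GM and 1.51, 2.35 and 1.86 in DM. Both fell without overlap between the groups, NDC80 by 2.32 and NUF2 by 1.88 on the log2 scale.

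In the centromeric histone and inner kinetochore group, 10 of 12 genes fell (median log2 fold change −1.13). CENPA (ENSBTAG00000023938, chromosome 11, 72792306 to 72798612, minus strand) measured 8.93, 8.95 and 8.32 FPKM in GM and 0.351, 0.468 and 0.205 in DM, so that 3.91% of the GM mean remained. Its log2 fold change was −2.86 ± 0.09 (SE, limma adjusted p = 2.8e-07). At the other end, CENPM, a subunit of the inner layer, measured 9.49, 9.19 and 9.05 FPKM in GM and 6.85, 7.22 and 6.36 in DM. The groups did not overlap, yet the log2 fold change of −0.39 ± 0.06 (SE, limma adjusted p = 0.0014) stayed under 1.5-fold.

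CENPT, which contacts centromeric DNA and recruits the Ndc80 complex directly, measured 6.26, 5.35 and 6.04 FPKM in GM and 1.23, 1.49 and 1.19 in DM, a log2 fold change of −1.58. CENPO measured 4.58, 5.09 and 4.00 FPKM in GM and 1.98, 1.68 and 1.79 in DM, a change of −0.98. The DM libraries were below the GM libraries in both genes, with more remaining of CENPO (39.9%) than of CENPT (22.1%). Log2 fold changes of the other 7 genes called in the group ran from −1.80 for CENPN to −0.74 for CENPH. CENPL, at −0.54 ± 0.10 (SE), was not called, but passed 1.5-fold without GM replicate 3 (−0.63) and with a pseudocount of 0.1 (−0.76).

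The KNL1 and Mis12 complexes, which join the inner layer to the Ndc80 rod, split evenly, with 3 genes lower and 3 not called (median log2 fold change −0.63). KNL1 (ENSBTAG00000053398, chromosome 10, 36179163 to 36240615, plus strand), the scaffold that binds the BUB proteins, measured 4.2, 4.5 and 3.65 FPKM in GM and 0.381, 0.437 and 0.358 in DM. Only 9.52% of its GM mean remained, a log2 fold change of −1.88 ± 0.08 (SE, limma adjusted p = 1.5e-06). MIS12 measured 5.30, 5.18 and 3.51 FPKM in GM and 3.77, 3.57 and 4.14 in DM. Here the groups overlapped, because GM replicate 3 lay below all DM libraries, and the log2 fold change of −0.22 ± 0.13 (SE, limma adjusted p = 0.22) did not pass. Without that library it was −0.37 (limma adjusted p = 0.0062), still under 1.5-fold.

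DSN1, another Mis12 subunit, measured 14.1, 13.3 and 12.4 FPKM in GM and 6.16, 6.98 and 7.31 in DM, a log2 fold change of −0.87. PMF1, the remaining Mis12 subunit called, had a log2 fold change of −1.35. NSL1 (−0.39) and the KNL1 partner ZWINT (−0.24, limma adjusted p = 0.053) were not called.

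Among 4 genes of the fibrous corona, the outermost layer that forms on unattached kinetochores, 3 fell (median log2 fold change −1.50). CENPF (ENSBTAG00000024449, chromosome 16, 68929292 to 68991907, minus strand), a large corona protein, measured 8.76, 8.65 and 6.93 FPKM in GM and 0.250, 0.432 and 0.196 in DM. With 3.61% of its GM mean left, it kept the smallest share of the 44 genes, at a log2 fold change of −2.81 ± 0.11 (SE, limma adjusted p = 7.2e-07). CENPE, a kinesin motor that carries chromosomes to the spindle equator, measured 4.93, 5.22 and 3.74 FPKM in GM and 0.532, 0.563 and 0.483 in DM, a change of −1.87.

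KNTC1 and ZW10 are partners in the RZZ complex, which brings checkpoint proteins and dynein to the corona. KNTC1 measured 2.39, 2.84 and 2.18 FPKM in GM and 0.492, 0.620 and 0.613 in DM, a log2 fold change of −1.14. ZW10, which also works in membrane traffic between the Golgi and the endoplasmic reticulum, measured 17.0, 16.7 and 15.2 FPKM in GM and 14.8, 14.2 and 13.9 in DM. It kept 87.5% of its GM mean, the largest share of the 44 genes, with a log2 fold change of −0.18 ± 0.06 (SE, limma adjusted p = 0.042).

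In the Ska complex, which stabilises microtubule attachment, SKA3 and SKA1 transcripts fell while SKA2 was not called. SKA3 (ENSBTAG00000003314, chromosome 12, 35583971 to 35597394, plus strand) measured 8.71, 7.92 and 7.39 FPKM in GM and 1.79, 1.96 and 1.62 in DM, a log2 fold change of −1.69 ± 0.08 (SE, limma adjusted p = 1.9e-06). SKA1 measured 2.62, 2.60 and 2.33 FPKM in GM and 0.684, 0.682 and 0.474 in DM, a change of −1.13. SKA2 measured 26.5, 24.1 and 21.4 FPKM in GM and 18.3, 17.1 and 18.8 in DM. The SKA2 groups did not overlap, but 75.2% of the GM mean remained (log2 fold change −0.39 ± 0.08, SE).

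Of the spindle checkpoint genes, BUB1B, BUB1 and TTK fell and BUB3 was not called (median log2 fold change −2.18 over the 4). BUB1B (ENSBTAG00000007237, chromosome 10, 35786200 to 35841256, plus strand), a subunit of the mitotic checkpoint complex that restrains the APC/C, measured 11.2, 10.6 and 9.93 FPKM in GM and 0.811, 0.840 and 0.675 in DM. Its log2 fold change was −2.70 ± 0.07 (SE, limma adjusted p = 2.1e-07). BUB1, a kinase of the checkpoint, measured 9.55, 9.41 and 7.81 FPKM in GM and 0.892, 1.25 and 0.800 in DM, a change of −2.33. Among the DM values of these genes, only BUB1 in replicate 2 stayed above 1 FPKM. TTK, the kinase that starts checkpoint signalling, fell from a mean of 3.92 to 0.205 FPKM, the lowest DM mean of the 44.

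BUB3, the adaptor that BUB1 and BUB1B bind, measured 24.8, 26 and 26.3 FPKM in GM and 21.7, 20.8 and 22.0 in DM. The groups were separate but close, with 83.7% remaining and a log2 fold change of −0.25 ± 0.05 (SE, limma adjusted p = 0.0049). BUB3 was the most abundant of the 44 genes in DM.

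All 4 genes of the chromosomal passenger complex, which corrects faulty attachments through the kinase AURKB, fell (median log2 fold change −1.90). BIRC5 (ENSBTAG00000013573, chromosome 19, 53940667 to 53947960, minus strand), the survivin subunit that targets the complex to the centromere, measured 28.2, 28.1 and 27.4 FPKM in GM and 2.31, 2.41 and 2.95 in DM. Its log2 fold change of −3.03 ± 0.08 (SE, limma adjusted p = 2.1e-07) was the largest in the complex. By share of the GM mean, CDCA8 kept less (8.77%) than BIRC5 (9.16%). CDCA8, the borealin subunit, measured 6.49, 7.76 and 6.78 FPKM in GM and 0.666, 0.828 and 0.350 in DM, a change of −2.32. AURKB measured 9.02, 9.30 and 8.56 FPKM in GM and 2.37, 2.96 and 2.42 in DM, a change of −1.48. The scaffold INCENP moved least, from 7.85, 7.66 and 7.95 FPKM in GM to 3.39, 3.44 and 3.52 in DM, a log2 fold change of −0.99 ± 0.06 (SE, limma adjusted p = 4.9e-06).

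Both further mitotic kinases fell. PLK1 (ENSBTAG00000014453, chromosome 25, 21334598 to 21345432, plus strand), which acts at kinetochores, centrosomes and in cytokinesis, measured 11.1, 10.3 and 10.1 FPKM in GM and 1.47, 1.76 and 1.5 in DM, a log2 fold change of −2.16 ± 0.07 (SE, limma adjusted p = 3.7e-07). AURKA, the spindle pole kinase, measured 9.84, 10.7 and 9.93 FPKM in GM and 2.28, 2.42 and 2.53 in DM, a change of −1.71 ± 0.06 (SE, limma adjusted p = 6.3e-07). AURKA and PLK1 began at like levels, and every DM library held less PLK1 than AURKA.

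All 5 genes of cohesion protection and anaphase onset fell (median log2 fold change −1.72). CDC20 (ENSBTAG00000009819, chromosome 3, 102655232 to 102659704, minus strand), the activator of the APC/C in mitosis, measured 13.8, 13.3 and 12.9 FPKM in GM and 0.694, 0.789 and 0.821 in DM. Its change of −3.02 ± 0.06 (SE, limma adjusted p = 1e-07) left 5.78% of the GM mean. PTTG1 (securin) and its target ESPL1 (separase) fell with log2 fold changes of −2.58 and −1.72, and SGO1, which shields centromeric cohesin, with −1.28. The second shugoshin, SGO2, measured 6.02, 6.67 and 4.48 FPKM in GM and 2.89, 2.94 and 3.27 in DM, the smallest fall of the group at −0.72 ± 0.12 (SE, limma adjusted p = 0.0018).

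**Figure D2:**
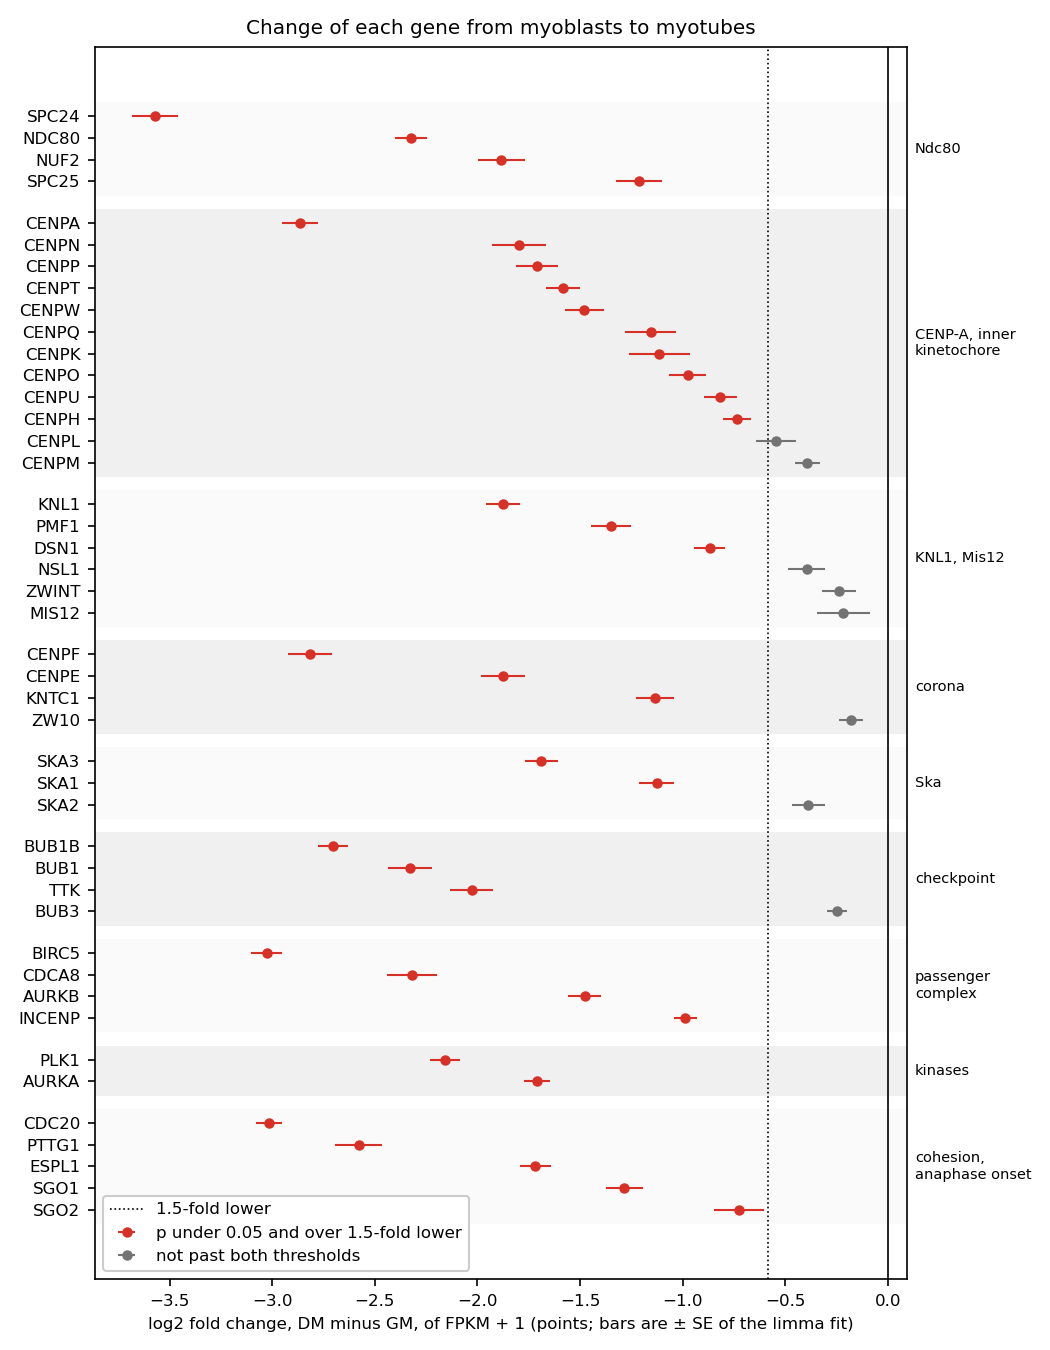
Log2 fold change of FPKM + 1, DM minus GM, for each of the 44 genes by role, with bars of ± 1 SE from limma. The 36 red points passed p under 0.05 and 1.5-fold, and the 8 grey points (CENPL, CENPM, NSL1, ZWINT, MIS12, ZW10, SKA2 and BUB3) did not.

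Partners within a complex, and the kinases AURKA and AURKB of different complexes, were compared with each other. The log2 ratio of FPKM + 1 was taken in each library for 10 pairs, and in all 10 the GM and DM values did not overlap. The pairs are not independent, since BUB3 and SKA2 each enter 2 of them. They were chosen with earlier results of these data known. Those with BUB3, SKA2, MIS12 or ZW10 set a called gene over one not called, so their separation in part restates those calls. Each pair gave a two-sided exact permutation p of 0.10, also after adjustment over the 10 pairs, which is the smallest p that 3 against 3 libraries can give. With the pseudocount of 1, the widest shifts were BUB1B over BUB3 (−2.46), SPC24 over SPC25 (−2.36), BUB1 over BUB3 (−2.08) and BIRC5 over INCENP (−2.04). In plain FPKM, SPC24 exceeded SPC25 11.0-fold ± 3.70 in GM and 2.41-fold ± 0.469 in DM (SD, n = 3), and BIRC5 exceeded INCENP 3.57-fold ± 0.108 in GM but stood at 0.740 ± 0.0865 of it in DM.

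The remaining shifts were smaller. SKA3 fell further than SKA2 by 1.30 and SKA1 by 0.74 on the log2 scale, with single-library ratios of −1.50, −1.49 and −1.42 in GM against −2.79, −2.61 and −2.92 in DM for SKA3. KNTC1 over ZW10 shifted by −0.96, DSN1 over MIS12 by −0.65 and NDC80 over NUF2 by −0.44. AURKB over AURKA was the only ratio of the 10 that was higher in DM, by 0.23, since AURKA fell further. The ratios depend on the pseudocount where a partner is near 1 FPKM. With 0.1 in place of 1, BUB1B over BUB3 went to −3.36, BUB1 over BUB3 to −2.82, KNTC1 over ZW10 to −1.74, SKA1 over SKA2 to −1.48 and NDC80 over NUF2 to −0.96. SPC24 over SPC25 went the other way, to −2.21, and so below BUB1 over BUB3 in size.

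Other genes of the pathway fell less as lists. Of 21 tested centromere and kinetochore genes outside the 45, 9 fell and none rose (median log2 fold change −0.41). KIF2C, a kinesin that dismantles microtubules at the centromere, fell the most, from 8.17, 7.54 and 7.49 FPKM in GM to 0.436, 0.628 and 0.401 in DM (−2.56). HJURP, OIP5 and MIS18A, which act in loading CENPA onto chromatin, were singled out after their values were seen, and they fell with log2 fold changes of −2.52 for the chaperone HJURP, −1.88 for OIP5 and −1.13 for MIS18A. The centromere proteins CENPC (7.41 to 6.53 FPKM) and CENPB (12.5 to 12.4 FPKM), also singled out afterwards, were not called. They do not stand for centromere proteins as a class, since CENPS (log2 fold change −1.43) and CENPX (−0.87) of the same list were called lower.

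In the APC/C list, 2 of 17 genes fell and none rose (median −0.20), a share not far above the 6.97% of all genes. Both are ubiquitin-conjugating enzymes that work with the complex, UBE2C (13.0, 12.0 and 13.8 FPKM in GM and 0.754, 0.909 and 0.565 in DM, −3.0) and UBE2S (64.1 to 29.8 FPKM, −1.08). The other 15, the core subunits and the second activator FZR1 (8.78 to 8.49 FPKM), were not called. Of 11 tested cohesin genes, 2 fell and none rose (median −0.08), namely ESCO2, the acetyltransferase of S phase (3.66, 2.98 and 2.78 FPKM in GM and 0.490, 0.675 and 0.513 in DM, −1.41), and CDCA5, which protects cohesin from release (1.05 to 0.153 FPKM, −0.83). Among 10 genes of the phosphatases PP1 and PP2A-B56, which oppose the kinetochore kinases, limma called none (median −0.17), although 5 were lower at an unadjusted p under 0.05 with a change of any size (31.3% of all tested genes were, and 19.3% were higher), with log2 fold changes no lower than −0.36. By the same measure 14 of 21, 9 of 17 and 4 of 11 genes were lower in the other kinetochore, APC/C and cohesin lists. In each of these 3 lists 1 gene was higher by this measure, among them ANAPC5 (9.24 to 12.0 FPKM, 0.34) and STAG1 (6.68 to 9.77 FPKM, 0.49).

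**Figure D3:**
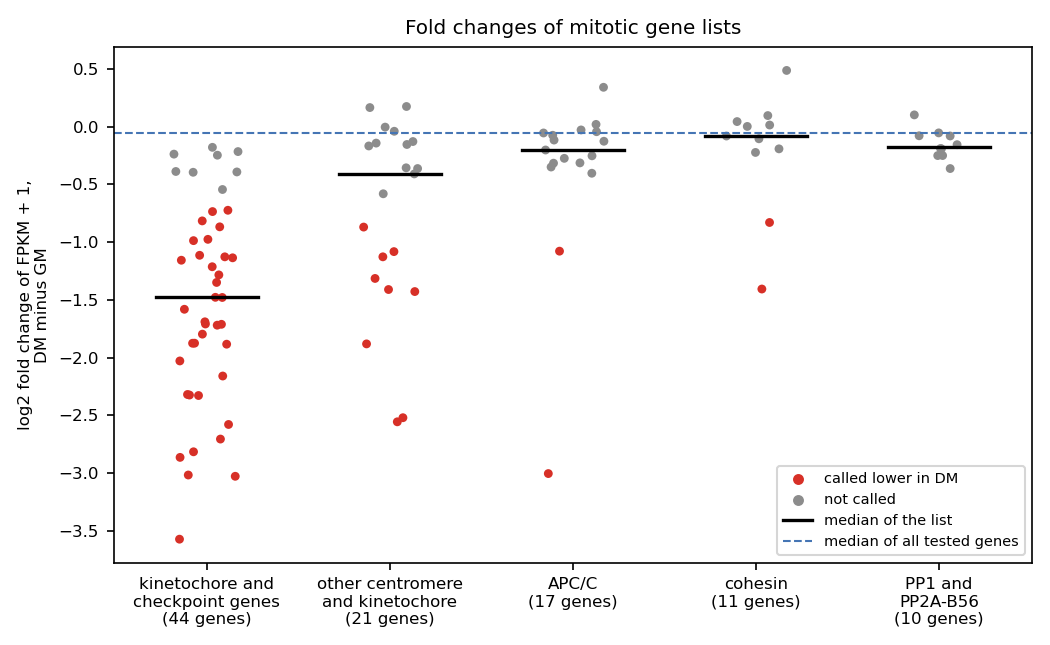
Log2 fold change of FPKM + 1, DM minus GM, of single genes (points) in 5 lists, with the list median as a black bar and the median of all tested genes (−0.05) as a dashed line. The medians run from −1.48 for the kinetochore and checkpoint genes to −0.08 for cohesin, and red points mark the genes called lower.

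m6A is a methyl mark on adenosines inside mRNA that reader proteins recognise and that can alter splicing, translation and decay. The peak lists used here give peaks of IP over input once per group. A peak therefore has 1 fold enrichment (the ratio of IP to input) per group, with no replicate error and no test between groups. The paper also reports peak counts per sample and differentially methylated peaks between GM and DM, which were not used here. Of the 44 genes, 29 (65.9%) had 52 peaks in the GM list and 34 (77.3%) had 78 peaks in the DM list, where 70.9% and 78.7% of all tested genes had a peak. In both lists 28 genes had a peak, 9 had one in neither (SPC25, CENPH, CENPK, CENPN, CENPQ, CENPU, CENPW, DSN1 and CDC20), and SKA1 had one in GM alone, 2.27% of the 44 against 2.32% of all tested genes. NUF2, SKA3, BUB1, TTK, AURKB and PTTG1 had peaks in DM alone, 13.6% of the 44 against 10.1% of all tested genes. Of the 7 peaks in these 6 genes, that of SKA3 reached a false discovery rate under 0.001.

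The larger number of peaks in DM came with a weaker median false discovery rate, although BUB3, CENPL, CENPM, MIS12, NSL1 and CENPE had a stronger best peak in DM than in GM. In GM, 46 of the 52 peaks of these genes (88.5%) had a false discovery rate under 0.001, and in DM 33 of 78 (42.3%), while the whole lists stood at 72.2% and 68.1%. Their median exon length went from 341 bases in GM to 240.5 in DM, against 352 and 421 for all peaks, and their median fold enrichment from 2.91 to 3.43, against 3.27 and 3.38. The RNA level moved with this, since no gene of the set averaged under 1 FPKM in GM and 17 did in DM, of which 13 had a peak. Whether the lower level accounts for the weaker peaks was not tested. At a false discovery rate under 0.001 the order was turned, with 27 genes (61.4%) carrying a peak in GM and 24 (54.5%) in DM, where 65.8% and 70.8% of all tested genes did.

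**Figure D4:**
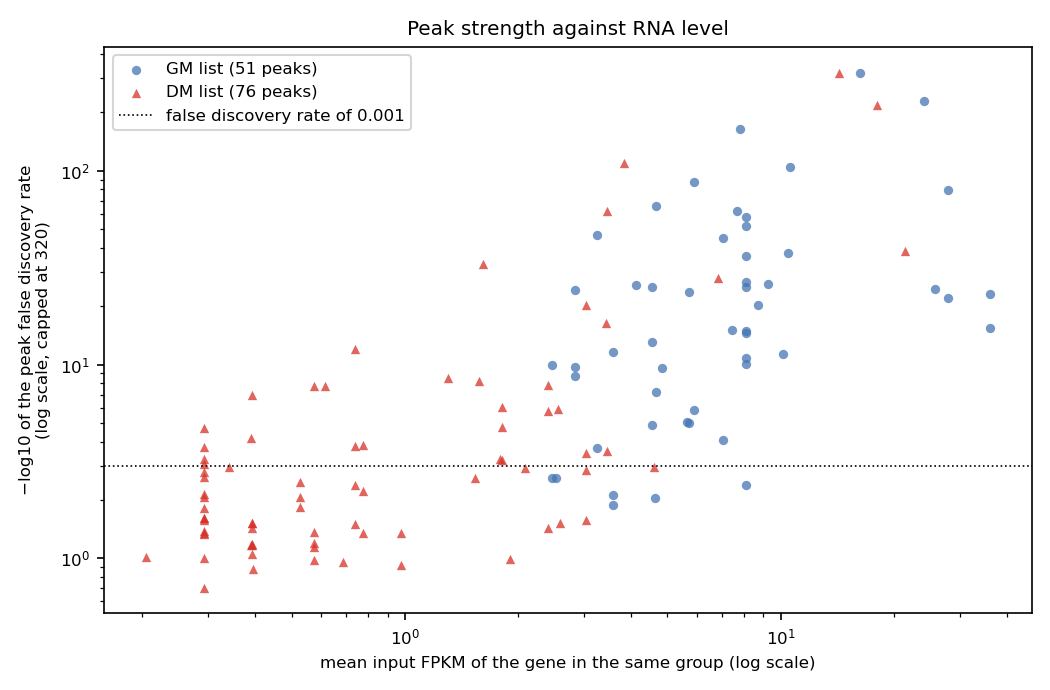
Each m6A peak annotated to a kinetochore or checkpoint gene, by the mean input FPKM of its gene in the same group (x axis, log scale) and −log10 of the study's false discovery rate (y axis, log scale). Blue circles are GM peaks and red triangles DM peaks, and 42.3% of the 78 DM peaks pass a false discovery rate of 0.001, against 88.5% of the 52 GM peaks (3 peaks annotated to exons of other genes are not drawn).

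CENPF carried the most peaks, 10 in GM with fold enrichments of 1.51 to 4.2 and 17 in DM with 1.91 to 10.1, although its input RNA fell to 0.293 FPKM. KNL1 went from 1 peak of 870 exon bases in exon 10 of 23 to 7 peaks, of which 5 did not overlap the GM peak and 4 had a false discovery rate under 0.05. KNTC1 went from 2 peaks to 5, all in the 3′ UTR, with fold enrichments of 2.24 to 24.5 in DM, and 2 of the 5 had a false discovery rate under 0.05. In CENPF and KNTC1 most DM peaks overlapped a GM peak that met several others, so that counts of peaks are not counts of methylated sites.

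All 8 genes that were not called in RNA had peaks in both lists, as did 20 of the 36 that fell (55.6%), where 68.9% of all uncalled and 61.0% of all lowered genes did. A peak with a false discovery rate under 0.001 was listed in DM for 7 of the 8 and for 17 of the 36. The GM list already showed a like split, with such a peak for 8 of the 8 and for 19 of the 36. This split was looked at after the values were seen.

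In 17 of the genes, 19 peaks of GM matched exactly 1 peak of DM, and 10 of these pairs lay in the 3′ UTR in both lists. Fold enrichment was over 1.5-fold higher in DM in 7 pairs (36.8%) and over 1.5-fold lower in 2 (10.5%), where 14.2% and 10.8% of all 10239 pairs were. The median log2 ratio of DM over GM was 0.32, against 0.07 for all pairs. In 6 of the 7 higher pairs and both lower pairs the RNA of the gene fell, as it did in 36 of the 44 genes (81.8%).

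The largest ratio was at the 5′ end of CENPF, from 1.51 to 9.58, but these peaks share 1 base, and the DM peak had a false discovery rate of 0.041. The 3′ UTR peak of CENPF (chromosome 16, 68929292 to 68929621) covered the same 330 bases in both lists and went from 3.99 to 10.1. The 3′ UTR peak of AURKA (chromosome 13, 59570131 to 59570400 in GM) went from 2.91 to 10.6, with false discovery rates of 5e-12 in GM and 1.8e-06 in DM. The 3′ UTR peak of CENPA (chromosome 11, 72792306 to 72792545 in GM) went from 5.08 to 8.52, and that of CDCA8 (chromosome 3, 108198791 to 108200661 in GM) from 3.08 to 4.84. In CENPE, peaks that share 1 base went from 1.5 to 2.66. In these genes 3.61% (CENPF) to 23.7% (AURKA) of the GM RNA level remained. With like shares of RNA left, pairs stayed within 1.5-fold in NDC80 (9.19%, 2.35 to 2.03), PLK1 (15.0%, 6.38 to 6.39) and SGO1 (22.8%, 3.73 to 4.48). An inner exon pair of CENPF also did (1.78 to 2.13), and CENPT, with 22.1% left, had a lower pair.

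ZW10 also had a higher pair, but its RNA was nearly kept. Its 3′ UTR peak (chromosome 15, 24284251 to 24287665 in GM) went from a fold enrichment of 9.36 to 17.2 and its false discovery rate was listed as 0 in both lists. The lower pairs were the 3′ UTR peaks of CENPT (chromosome 18, 35338638 to 35339918 in GM), from 8.55 to 4.61, and of CENPO (chromosome 11, 74418941 to 74419329 in GM), from 4.46 to 2.94. CENPO overlaps ADCY3 and PTRHD1 on the other strand, and the peak lists give no strand of their own. Fold enrichment was within 1.5-fold in the other 10 pairs, among them PLK1 (6.38 and 6.39), SKA2 (3.16 and 3.39) and BUB3 (2.53 and 3.16).

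**Figure D5:**
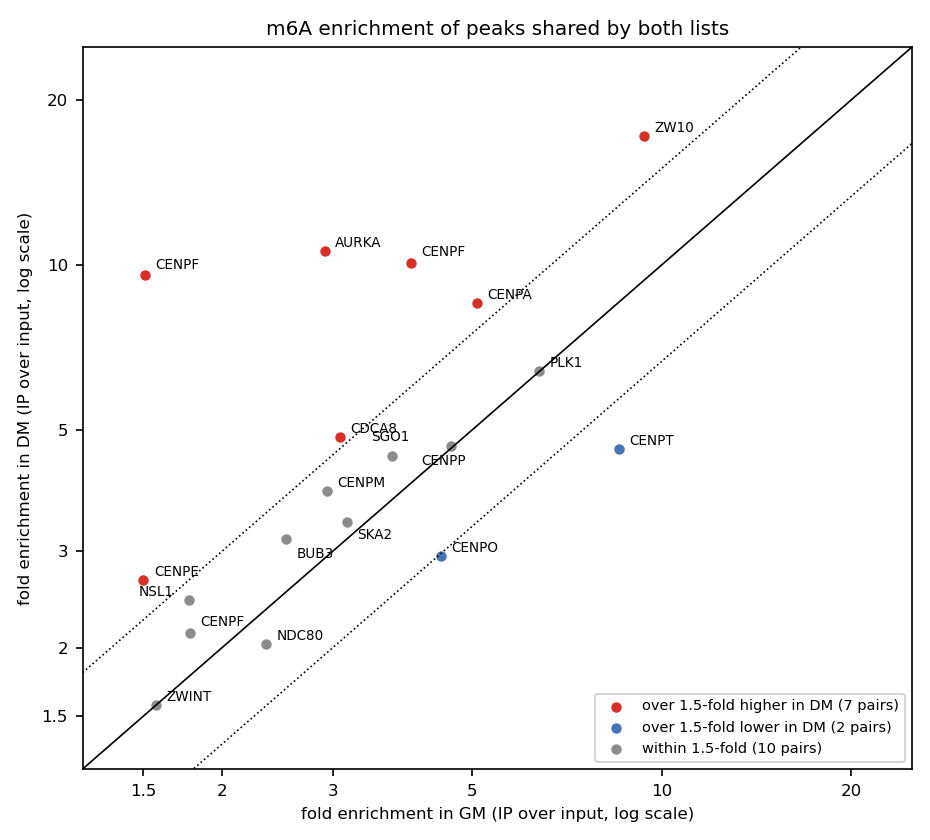
Fold enrichment (IP over input) in GM and DM of the 19 peaks matched between the lists, on log axes, with equality as a solid line and 1.5-fold as dotted lines. The 7 red pairs lie above the upper dotted line, led by CENPF (1.51 to 9.58), and the 2 blue pairs (CENPT and CENPO) below the lower.

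Fold enrichments at low RNA level were partly stepwise. Between 3 and 10, 14 of the 41 DM peaks of these genes (34.1%) were whole multiples of 1.065 within rounding, and 0 of 23 GM peaks were whole multiples of the GM step of 1.089, while 24.4% and 24.6% of the whole lists were. In the whole DM list the share was 51.3% for genes under 1 FPKM, 19.0% from 1 to 5 FPKM and 9.68% at 5 FPKM or more. For the DM peaks of these genes it was 40.0% of 25, 30.8% of 13 and 0 of 3 in the same classes. Of the matched pairs, the DM peaks of CENPA (8.52), AURKA (10.6), PLK1 (6.39), an inner CENPF exon (2.13) and the 5′ end of CENPF (9.58), which gave the largest ratio, lay on such a step. CENPP needs a separate caution, since its GM peak and 2 of its 3 DM peaks were annotated to exons of genes nested in it on the other strand (ECM2 and OMD). CENPP RNA went from 7.30 to 1.54 FPKM, and the genes nested in it include OGN (159 to 51.9 FPKM) and ASPN (196 to 180 FPKM), whose part in the CENPP values was not tested.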

How the data were processed

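Myoblasts (GM) and myotubes (DM) were profiled with 3 input and 3 m6A IP libraries each, strand-specific by the dUTP method. The authors aligned reads to ARS-UCD1.2 with HISAT2 and deposited StringTie FPKM of the 6 input libraries for 18436 genes. The submitters' processing notes name cutadapt and fastp, and the study's methods Trimmomatic. Of the 2 deposited exomePeak lists (1 per group, annotated by the authors with ChIPseeker), the fold enrichment ratio and the log10 false discovery rate were used. The FPKM columns of the 6 input libraries were each mapped to a sample. Peak positions, exon blocks and gene annotation were also read from the peak lists. The study gives read totals per library, which were not used here. The deposited FPKM come without read counts, so the number of reads behind a single gene's value is unknown. The precision rests on the spread of 3 libraries, and peaks carry no error.

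Genes averaging 0.5 FPKM or more were tested in R 4.3.3 with limma 3.58.1 (trend) on log2(FPKM + 1), DM minus GM, and called at p under 0.05 and over 1.5-fold, the study's thresholds. Fold changes are on that scale, which understates the change of low genes. Adjustment was by Benjamini-Hochberg over 12302 genes. Samples were grouped by their titles. Deviations of same-numbered GM and DM libraries correlated at −0.08, −0.12 and −0.21, so the numbers were not taken as pairs. Peaks were matched in Python 3.11.15 with pandas 2.3.3 and numpy 2.4.6 by at least 1 shared base of exon blocks on the strand of the annotated gene, and figures drawn with matplotlib 3.10.9. The scripts were tested on simulated data. Named genes are the largest and smallest change in each role, all partners in a ratio, genes with a changed peak pair, and the largest changes called in each list. The members, lists and partners were chosen with earlier results of these data known, and the step in fold enrichment was looked at after the data were seen. Gene sequences were not analysed here. CENPK overlaps PPWD1 and CENPQ overlaps MMUT on the other strand, and CENPU overlaps ACSL1 on the same strand, and whether the authors' quantification used strand is not given in the sources used here.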

Additional observations from a re-analysis of the deposited data

How the results depend on the processing

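The count of 36 lower and 0 higher genes was 36 or 37 lower and 0 higher under every alternative of pseudocount, filter, scaling, variance trend, adjusted p and left-out library, and 30 lower at over 2-fold, where CENPH, CENPO, CENPU, DSN1, INCENP and SGO2 lost their call. Scaling to TPM moved the median of all genes by 0.11 (log2) and left 36 genes lower. Of 660 combinations of the 44 genes with an alternative, 652 kept their side of the thresholds and no fold change changed sign. The filters, a replicate block, the variance trend, the adjusted p and the 2-fold threshold leave a fold change itself unchanged. Its sign could not move under these. The replicate number as a block gave 36 lower genes and moved no call among the 44, and 865 lower and 608 higher genes in all. Of the cohesin list, 1 gene was lower with a filter of 1 FPKM, at over 2-fold, or without GM replicate 3 (range over left-out libraries 1 to 2), and 1 was higher, STAG1, as TPM. No ratio between partners changed sign. Of the 19 matched m6A peak pairs, 3 were higher and 0 lower at over 2-fold. The other alternatives gave 6 to 10 higher and 2 or 3 lower, of 17 to 22 pairs. The share of all pairs was not computed under these alternatives. The promoter motif comparison and its 2 alternatives were not run, for want of a sequence table. Unknown read numbers limit statements on genes under 1 FPKM, and the single peak list per group those on m6A.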
